A study of Homo sapiens with 9 samples.

Results

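The HOX genes encode homeodomain transcription factors that give cells their position along the head-to-tail axis of the embryo. All 39 of them lie in 4 clusters, HOXA on chromosome 7, HOXB on chromosome 17, HOXC on chromosome 12 and HOXD on chromosome 2. The genes at low numbers act in anterior structures and those at high numbers, the 9 to 13 groups, in posterior ones. In the embryonic gut they are used in nested domains, with group 13 genes in the hindgut, and Polycomb and Trithorax proteins, retinoic acid and the caudal-type factors CDX1 and CDX2 are known to control them. Here they were chosen by symbol alone, as every gene called HOXA, HOXB, HOXC or HOXD followed by digits, which gave 39 of the 52158 named genes in the count table: 11 in HOXA, 10 in HOXB, 9 in HOXC and 9 in HOXD.

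RNA of 9 human oesophageal adenocarcinoma cell lines, ESO-26, ESO-51, FLO-1, JH_EsoAd1, OACP4_C, OAC_5.1_C, OE19, OE33 and SK-GT-4, was sequenced from cultures grown in normal conditions, with no treatment stated and no normal tissue set beside them. Every line is a tumour-derived culture labelled oesophageal adenocarcinoma by cell type and gastric cardia adenocarcinoma by source. Technical replicates were stated, 3 per line, but each line has 1 column of counts. There is therefore no error between cultures and no test: each library was set against the other 8, and intervals are exact 95% Poisson intervals that cover counting error only. Line names below stand for the libraries so labelled. The column used for OAC_5.1_C is headed OACM5.1_C in the count table and was matched to it by name.

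The libraries held 16801179 (ESO-26) to 69881539 (FLO-1) counts in the table, and the limit given for 0 counts, a floor of 3 counts rather than the end of a Poisson interval, is 0.0395 CPM (counts per 1e6, TMM-scaled) in FLO-1 and 0.169 CPM in ESO-26. Of 6 epithelial markers, 6 were at least 4-fold lower in the library labelled ESO-26 than the median of the other 8 and 4 in that labelled OE33. Their summed level was 157 CPM in ESO-26 but 1184 CPM in OE33 and 3672 to 14899 CPM in the other 7 libraries, and CDH1 had 3 counts in ESO-26. ERBB2, known as amplified in OE19, stood at 188 CPM in the library labelled OE19, against 17792 CPM in that labelled SK-GT-4. The 4 haematopoietic markers summed to 0.0222 to 2.13 CPM. The 4 fibroblast markers summed to 86.6 CPM in JH_EsoAd1, with COL1A1 and COL1A2 high and DCN at 0 counts, and to 1.95 to 27.9 CPM in the other 8. In ESO-26 DCN, at 13.2 CPM, and COL1A2 were at least 4-fold higher and COL1A1 at least 4-fold lower. PDGFRB was at least 4-fold higher in OE33, and COL1A1 at least 4-fold lower in OE19. Of 3 endothelial markers PECAM1 was not among the named genes. CDH5 was at least 4-fold higher in JH_EsoAd1, at 29.5 CPM, and in FLO-1, while VWF was under 1 CPM in both. CDH5 and VWF summed to 29.8 CPM in JH_EsoAd1, 8.29 CPM in FLO-1 and 0 to 4.46 CPM in the other 7 libraries. The part of these departures in the HOX values below was not tested.

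Start-site windows are shown for HOXD13, HOXD8 and HOXD3, which reached 1 CPM in ESO-26 alone, and for HOXA9, which was highest in OE33. No window was found for HOXC6 and HOXC9, which were highest in OE33 too. The windows, taken from RefSeq, of 250 bases before and 50 after the annotated start in GRCh38.p14, are at chr2:176092471-176092770 on the plus strand for HOXD13, chr2:176129455-176129754 on the plus strand for HOXD8, chr2:176157057-176157356 on the plus strand for HOXD3 and chr7:27165488-27165787 on the minus strand for HOXA9. The deposited values were made on GRCh37, so these coordinates do not apply to them. Capitals mark matches, on either strand, to any of 3 motifs, with overlapping matches merged. The first is the TATA box, TATAAA. A core recognised by CDX factors, searched as TTTATG, is the second. The composite bound by PBX and HOX proteins together, searched as TGATTNAT, is the third.
HOXD13: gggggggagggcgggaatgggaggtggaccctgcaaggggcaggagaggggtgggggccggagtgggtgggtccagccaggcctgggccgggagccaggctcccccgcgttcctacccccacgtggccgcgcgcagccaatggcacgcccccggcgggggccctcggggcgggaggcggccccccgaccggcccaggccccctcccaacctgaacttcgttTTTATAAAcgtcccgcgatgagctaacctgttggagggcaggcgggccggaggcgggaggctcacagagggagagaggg
HOXD8: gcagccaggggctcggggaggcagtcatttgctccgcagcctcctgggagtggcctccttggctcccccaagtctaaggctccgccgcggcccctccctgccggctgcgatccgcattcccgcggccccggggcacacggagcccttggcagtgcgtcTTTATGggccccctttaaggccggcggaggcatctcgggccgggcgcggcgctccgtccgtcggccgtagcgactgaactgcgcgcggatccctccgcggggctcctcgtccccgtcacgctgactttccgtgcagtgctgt
HOXD3: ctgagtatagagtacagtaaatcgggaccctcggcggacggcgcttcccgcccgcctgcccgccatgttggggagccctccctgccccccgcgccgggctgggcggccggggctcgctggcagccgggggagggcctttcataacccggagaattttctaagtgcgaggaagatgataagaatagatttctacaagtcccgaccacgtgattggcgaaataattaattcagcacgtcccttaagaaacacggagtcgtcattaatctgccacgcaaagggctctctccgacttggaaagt
HOXA9: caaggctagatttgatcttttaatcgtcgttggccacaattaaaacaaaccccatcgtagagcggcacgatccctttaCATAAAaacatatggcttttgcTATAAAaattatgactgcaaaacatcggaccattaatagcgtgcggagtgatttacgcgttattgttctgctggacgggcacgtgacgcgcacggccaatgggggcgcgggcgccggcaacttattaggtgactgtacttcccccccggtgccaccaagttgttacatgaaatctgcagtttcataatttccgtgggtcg

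The HOXD13 window held 2 TATAAA matches, which overlap each other on opposite strands, the HOXD8 window 1 TTTATG match, the HOXA9 window 1 TATAAA and 1 TTTATG match, and the HOXD3 window none of the 3 motifs. TATAAA occurs in 11.5% of the 35116 start-site windows, TTTATG in 10.6% and TGATTNAT in 2.82%. RefSeq windows were found for 20 of the 39 HOX genes, 27 windows in all. They held a median of 22 CG dinucleotides, against 14 over all windows, at a GC content of 58.0% against 58.7%. These medians weight genes unequally: HOXA3 had more windows than any other of the 20, and HOXC4 and HOXC5 have the same window, counted for each. HOXB1 was the only HOXB gene among the 20. Of the windows printed, HOXD8 had 34 CG dinucleotides, HOXD3 25, HOXD13 24 and HOXA9 22. A match is a description of the letters and not a site at which a factor was measured.

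A larger share of HOX genes than of all genes was detected in each library taken alone, while a smaller share was detected in all 9 at once. All 39 HOX genes are protein-coding, whereas the 52158 named genes include noncoding ones. The part of gene type in these shares was not tested. At 1 CPM or more there were 23 of 39 in OACP4_C (27.3% of all 52158 genes), 22 in OE19 (26.4%), 24 in FLO-1 (29.1%), 17 in SK-GT-4 (27.5%), 14 in ESO-26 (26.5%), 22 in OE33 (27.2%), 14 in ESO-51 (27.7%), 21 in OAC_5.1_C (28.1%) and 16 in JH_EsoAd1 (28.3%). Of the HOX genes 3 reached that level in all 9 libraries, 7.69% against 20.1% of all genes, namely HOXB3, HOXB7 and HOXC11. Another 18 did so in 5 to 8 libraries and 8 in 1 to 4. The remaining 10, HOXA4, HOXB1, HOXC4, HOXC5, HOXD1, HOXD4, HOXD9, HOXD10, HOXD11 and HOXD12, did so in none, 25.6% against 62.2% of all genes. The HOX shares per library ran from 35.9% in ESO-26 and ESO-51 to 61.5% in FLO-1. Fewer cells of a kind and less RNA per cell cannot be told apart in these values. The summed HOX level was 303 CPM in OE33, 283 in OE19, 260 in OACP4_C, 183 in FLO-1, 144 in SK-GT-4, 131 in OAC_5.1_C, 108 in JH_EsoAd1, 86.0 in ESO-51 and 77.1 in ESO-26. The heatmap of HOX levels shows that most of the signal came from HOXA, HOXB and HOXC, and that ESO-26 alone had a HOXD signal.

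**Figure D1:**
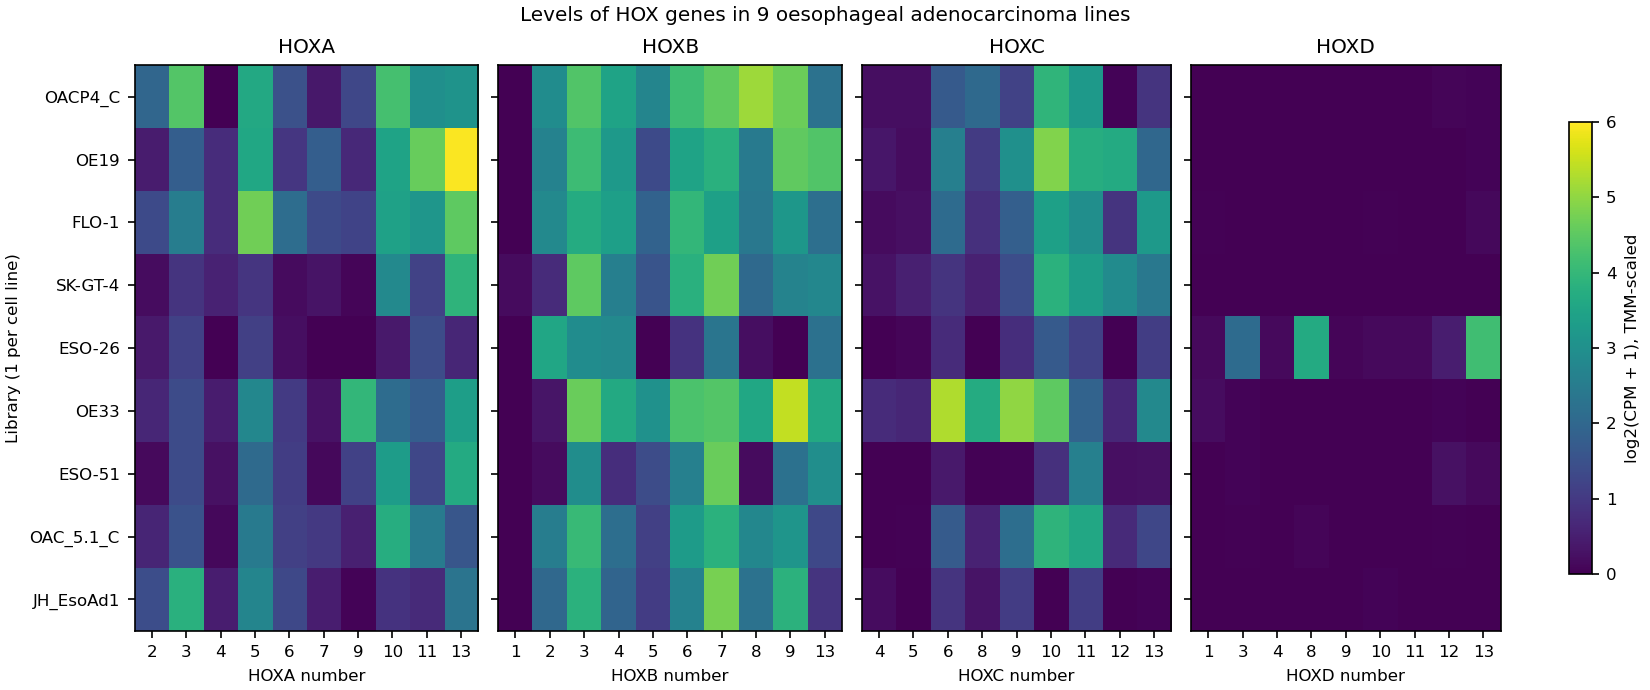
Level of HOX genes (horizontal axis, 1 panel per cluster, by number) in each of the 9 libraries (vertical axis), as log2(CPM + 1) in colour. HOXB3, HOXB7 and HOXC11 are at 1 CPM or more in every library, and the HOXD panel is near 0 except HOXD3, HOXD8 and HOXD13 in ESO-26.

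In the HOXA cluster OE19 was the highest library at HOXA11 and HOXA13, and OACP4_C at HOXA2, HOXA3 and HOXA10. ESO-26 was the lowest at HOXA9, HOXA10 and HOXA13, but not at HOXA11. HOXA13, the group 13 gene of the hindgut, limb and genital tract, stood at 61.3 CPM in OE19, 21.8 in FLO-1, 13.9 in SK-GT-4, 11.7 in ESO-51, 9.35 in OE33, 7.47 in OACP4_C, 3.92 in JH_EsoAd1, 2.02 in OAC_5.1_C and 0.563 in ESO-26. OE19 was above all others and ESO-26 below all others. In OE19 the level (95% interval 58.4 to 64.3) lay 2.73 log2 units above the median of the other 8, 8.36 CPM, on the log2(CPM + 1) scale used for every difference here. ESO-26 differed by -2.87, the others having a median of 10.4 CPM. HOXA11, which acts in limb and uterus, stood at 23.3 CPM in OE19, 7.84 in FLO-1, 6.94 in OACP4_C, 4.61 in OAC_5.1_C, 2.44 in OE33, 1.63 in ESO-26, 1.42 in ESO-51, 1.28 in SK-GT-4 and 0.637 in JH_EsoAd1. OE19 was again highest, with a difference of 3.01. HOXA10, another gene of uterine patterning, stood at 17.9 CPM in OACP4_C, 12.3 in OAC_5.1_C, 10.1 in OE19, 9.85 in FLO-1, 8.90 in ESO-51, 6.06 in SK-GT-4, 3.34 in OE33, 0.833 in JH_EsoAd1 and 0.338 in ESO-26. It was low in ESO-26 and JH_EsoAd1, at differences of -2.95 and -2.50, and between 3.34 and 17.9 CPM elsewhere.

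HOXA9 (ENSG00000078399), a posterior gene best known as a driver of leukaemia, stood at 14.6 CPM in OE33, 1.43 in OACP4_C, 1.32 in FLO-1, 1.24 in ESO-51, 0.615 in OE19, 0.435 in OAC_5.1_C, 0.0624 in SK-GT-4, 0.0490 in JH_EsoAd1 and 0 counts in ESO-26. In OE33 (95% interval 13.2 to 16.1) it was 2.68 log2 units above the highest of the other 8 libraries and 3.35 above their median. HOXA5, needed for lung development, stood at 25.2 CPM in FLO-1, 11.3 in OACP4_C, 10.9 in OE19, 5.90 in OE33, 5.63 in JH_EsoAd1, 4.46 in OAC_5.1_C, 3.24 in ESO-51, 1.18 in ESO-26 and 0.905 in SK-GT-4. FLO-1 was highest, by 2.12 over the median, a difference that came to 1.98 without any 1 of SK-GT-4, ESO-26, ESO-51 or OAC_5.1_C. HOXA3, which acts in the pharyngeal arches, stood at 20.1 CPM in OACP4_C, 12.9 in JH_EsoAd1, 4.83 in FLO-1, 2.46 in OE19, 1.85 in OAC_5.1_C, 1.60 in ESO-51, 1.58 in OE33, 1.24 in ESO-26 and 0.874 in SK-GT-4. OACP4_C and JH_EsoAd1 stood apart from the other 7 libraries, by 2.96 and 2.36. Among the other HOXA genes, HOXA2, a hindbrain gene, peaked at 2.92 CPM in OACP4_C. The trunk genes HOXA6 and HOXA7 peaked at 3.43 CPM in FLO-1 and 2.46 CPM in OE19, and HOXA4 stayed at or below 0.697 CPM.

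HOXB genes were detected in all 9 libraries, 5 of the 10 in ESO-26 and 9 in OACP4_C, OE19, FLO-1 and OAC_5.1_C. HOXB7, a gene of the trunk region, stood at 26.2 CPM in JH_EsoAd1, 24.8 in SK-GT-4, 23.7 in ESO-51, 22.3 in OACP4_C, 19.9 in OE33, 13.2 in OAC_5.1_C, 12.9 in OE19, 9.56 in FLO-1 and 4.0 in ESO-26. Every library had it, and ESO-26 was lowest, with a difference of -2.14 where the other 8 had a median of 21.1 CPM. HOXB3, an anterior gene of hindbrain and pharynx, stood at 23.6 CPM in OE33, 21.8 in SK-GT-4, 19.7 in OACP4_C, 16.4 in OE19, 15.5 in OAC_5.1_C, 13.2 in JH_EsoAd1, 11.9 in FLO-1, 6.70 in ESO-51 and 6.59 in ESO-26. No library departed from the others 4-fold, and the levels of OACP4_C, SK-GT-4 and OE33 lay close together at the top. HOXB9, the most posterior of the contiguous HOXB genes, stood at 42.5 CPM in OE33, 24.2 in OACP4_C, 22.1 in OE19, 13.4 in JH_EsoAd1, 8.01 in FLO-1, 7.70 in OAC_5.1_C, 5.43 in SK-GT-4, 3.68 in ESO-51 and 0 counts in ESO-26. OE33 was highest by 2.30 and ESO-26, at 0 counts (up to 0.169 CPM), lowest, at -3.51. A difference for a gene at 0 counts depends on the pseudocount and is no bound.

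HOXB8, used in myeloid progenitors, stood at 33.8 CPM in OACP4_C, 10.9 in OE33, 5.83 in OAC_5.1_C, 4.52 in OE19, 4.33 in FLO-1, 3.82 in JH_EsoAd1, 3.12 in SK-GT-4, 0.169 in ESO-26 and 0.133 in ESO-51. It was high in OACP4_C by 2.78 and nearly off in ESO-26 and ESO-51, at 3 and 6 counts and differences of -2.21 and -2.26. HOXB13, a gene of prostate and hindgut that lies apart from the rest of its cluster, stood at 19.8 CPM in OE19, 11.5 in OE33, 6.86 in ESO-51, 5.84 in SK-GT-4, 3.83 in OACP4_C, 3.72 in ESO-26, 3.59 in FLO-1, 1.48 in OAC_5.1_C and 0.882 in JH_EsoAd1. OE19 led, by 2.13, with OE33 next. Of the other HOXB genes, HOXB6, a trunk gene, was low in ESO-26, at 0.845 CPM, where the other 8 had a median of 11.4 CPM (-2.75). HOXB2, a hindbrain gene, was low in both OE33 (0.263 CPM, -2.26) and ESO-51 (0.133 CPM, -2.42). HOXB4, known for its action in blood stem cells, was 0.732 CPM in ESO-51 (-2.23). HOXB5 peaked at 7.25 CPM in OE33, and HOXB1 had 1 count in FLO-1, 4 in SK-GT-4 and none elsewhere. In ESO-26 the HOXB genes at 1 CPM or more were HOXB2 (10.6 CPM), HOXB3 (6.59 CPM, its lowest of the 9 libraries), HOXB4 (6.08 CPM), HOXB7 and HOXB13, while HOXB1, HOXB5 and HOXB9 had 0 counts.

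HOXC genes summed to 113 CPM in OE33 and 68.9 CPM in OE19, but to 3.53 CPM in JH_EsoAd1, 6.08 CPM in ESO-26 and 6.68 CPM in ESO-51. HOXC6 (ENSG00000197757), a thoracic gene, stood at 37.9 CPM in OE33, 5.06 in OE19, 3.25 in FLO-1, 2.29 in OAC_5.1_C, 2.26 in OACP4_C, 0.882 in JH_EsoAd1, 0.874 in SK-GT-4, 0.676 in ESO-26 and 0.333 in ESO-51. In OE33 (95% interval 35.6 to 40.3) it lay 2.68 log2 units above the highest of the other 8 and 3.97 above their median. HOXC9, also thoracic, stood at 30.95 CPM in OE33, 7.09 in OE19, 3.53 in OAC_5.1_C, 2.54 in FLO-1, 1.65 in SK-GT-4, 1.28 in OACP4_C, 1.08 in JH_EsoAd1, 0.732 in ESO-26 and 0.0444 in ESO-51. OE33 was again highest, 3.70 above the median and 1.98 above the next library, just under the 2 asked of a gene above all others. HOXC8, the gene between them, stood at 12.02 CPM in OE33, 3.15 in OACP4_C, 1.05 in OE19, 0.789 in FLO-1, 0.479 in OAC_5.1_C, 0.468 in SK-GT-4, 0.245 in JH_EsoAd1, 0.0222 in ESO-51 and 0 counts in ESO-26. It too was high in OE33, by 3.14, so that HOXC6, HOXC8, HOXC9, HOXA9 and HOXB9 were all high in that library.

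HOXC10, a gene of lumbar segments and hindlimb, stood at 28.2 CPM in OE19, 21.8 in OE33, 14.2 in OACP4_C, 13.95 in OAC_5.1_C, 13.3 in SK-GT-4, 9.55 in FLO-1, 2.25 in ESO-26, 0.777 in ESO-51 and 0 counts in JH_EsoAd1. The differences were -3.87 in JH_EsoAd1 (up to 0.147 CPM), -3.04 in ESO-51 and -2.17 in ESO-26. HOXC11, of the same region, stood at 12.3 CPM in OE19, 11.2 in OAC_5.1_C, 9.15 in SK-GT-4, 8.31 in OACP4_C, 6.80 in FLO-1, 5.13 in ESO-51, 2.74 in OE33, 1.24 in ESO-26 and 1.13 in JH_EsoAd1. It was detected in every library, and only the JH_EsoAd1 level, at -2.0, passed 4-fold, which came to -1.87 without any 1 of OACP4_C, OE19, SK-GT-4 or OAC_5.1_C. HOXC12, a posterior gene, was 11.8 CPM in OE19 and 6.43 in SK-GT-4 (3.22 and 2.44) and under 1 CPM in the other 7. HOXC13, known for its role in hair, was 8.31 CPM in FLO-1 (2.03, or 1.93 without any 1 of OACP4_C, ESO-26, ESO-51 or JH_EsoAd1). HOXC4 and HOXC5 peaked at 0.676 and 0.563 CPM, both in OE33.

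Across the other 8 libraries the HOXD genes were close to silent. HOXD13 (ENSG00000128714), a gene of digits and genitalia, had 298 counts in ESO-26, 16.8 CPM (95% interval 14.9 to 18.8), against 7 in FLO-1, 5 in ESO-51, 2 in OACP4_C, 1 in OE19 and 0 in SK-GT-4, OE33, OAC_5.1_C and JH_EsoAd1. HOXD8 (ENSG00000175879), a trunk gene, had 209 counts in ESO-26, 11.8 CPM (95% interval 10.2 to 13.5), and 3 in OAC_5.1_C, with none in the other 7. HOXD3, an anterior gene, had 58 counts in ESO-26, 3.27 CPM (95% interval 2.48 to 4.22), against 2 in ESO-51, 1 in OE33, 1 in OAC_5.1_C and 0 in the other 5. Only ESO-26 was therefore high. HOXD13 and HOXD8 lay 4.0 and 3.58 log2 units above the highest of the other 8 libraries, and HOXD3 lay 2.03 above. The other 6 HOXD genes had 1 to 7 counts in ESO-26, so the 3 HOXD genes detected there are not next to each other: HOXD9, HOXD10, HOXD11 and HOXD12 lie between HOXD13 and HOXD8, and HOXD4 between HOXD8 and HOXD3. HOXD4 had 2 counts there, but 14 by the intersection-not-empty rule described below, which differs where genes overlap. HOXD12 had 7 counts in ESO-26, 9 in ESO-51, 3 in OACP4_C, 1 in OE33, 1 in OAC_5.1_C and 0 in the other 4. HOXD1 had 2 counts in ESO-26, 4 in OE33, 2 in FLO-1 and 0 in the other 6. All HOXD genes summed to 581 counts in ESO-26 and 45 over the other 8 libraries, and 56 of those 72 gene and library pairs had 0 counts.

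Against the median of the other 8, 3 HOX genes were at least 4-fold higher in OACP4_C (3.22% of the 19707 genes tested), 4 in OE19 (3.63%), 2 in FLO-1 (4.91%), 1 in SK-GT-4 (4.41%), 3 in ESO-26 (3.80%), 5 in OE33 (4.47%), 0 in ESO-51 (3.61%), 0 in OAC_5.1_C (4.90%) and 1 in JH_EsoAd1 (4.03%). Lower by as much were 7 in ESO-26 (6.42%), 1 in OE33 (4.19%), 4 in ESO-51 (2.69%) and 3 in JH_EsoAd1 (1.17%). None was lower in OACP4_C (1.65%), OE19 (3.64%), FLO-1 (1.01%), SK-GT-4 (3.21%) or OAC_5.1_C (1.33%). Of the 39 HOX genes 29 reached 1 CPM in at least 1 library, which the tested genes had to. The other 10 could not be called. They are counted in the shares of the 39 below, whereas the shares of all genes tested hold no such genes. Those higher in at least 1 library numbered 17 of 39, 43.6% against 23.0% of all genes tested, and lower in at least 1 numbered 10, 25.6% against 13.9%. The rule of 2 log2 units above the highest of the other 8, with at least 5 CPM, named 4: HOXD8 and HOXD13 in ESO-26 (0.898% of all genes), HOXA9 and HOXC6 in OE33 (0.903%), 10.3% of the 39 against 5.49% of all genes tested in any library. The range over the 9 libraries had a median of 3.15 log2 units for the 39 HOX genes, untested ones included, against 1.95 for all genes tested, and 25 (64.1%, against 48.4%) spanned at least 2.

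The number of calls depends on the pseudocount and the unit. With a pseudocount of 5 CPM in place of 1, 6 of the 19 higher and 0 of the 15 lower calls passed, and on the deposited FPKM values 5 and 0. Lower calls had little room to pass in these settings. HOXC10 in JH_EsoAd1, at 0 counts against a median of 13.6 CPM, could not pass with a pseudocount of 5 CPM. Among the lower calls only HOXB7 in ESO-26 had a higher median of the other 8, 21.1 CPM. FPKM values are lower than the CPM, with 1 added. The loss of the lower calls there does not show that they are unstable. Single calls were rerun with DESeq2 size factors, library size alone, a pseudocount of 5 CPM, deposited FPKM and each other library left out. The 5 that passed in all of these, all of them higher calls, were HOXA13 in OE19, HOXB8 in OACP4_C, HOXC6 and HOXC9 in OE33, and HOXD13 in ESO-26. The other settings were not run for single calls. Over all 39 HOX genes the median difference was 0.31 in OACP4_C, 0.18 in OE19, 0.11 in FLO-1, 0.00 in SK-GT-4, -0.56 in ESO-26, 0.20 in OE33, -0.22 in ESO-51, 0.00 in OAC_5.1_C and -0.05 in JH_EsoAd1, against -0.04 to 0.06 over all genes. Without the ESO-26 and OE33 libraries there were 11 higher and 11 lower calls, the lower ones including 1 each in OE19, SK-GT-4 and OAC_5.1_C, which had 0 with all 9 libraries. Without OE19 and SK-GT-4 there were 14 higher and 13 lower calls.

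Levels per length, as deposited FPKM, can be set beside each other within a library. By share of the HOX FPKM, HOXB was the largest cluster in OACP4_C (58.3%), SK-GT-4 (58.7%), OE33 (49.5%), ESO-51 (64.8%), OAC_5.1_C (48.1%) and JH_EsoAd1 (67.0%). HOXA led in OE19 (38.5%, with HOXB at 37.2%) and FLO-1 (49.0%), and HOXD in ESO-26 (47.7%, 95% interval 44.7 to 50.7), against 0 to 0.552% in the other 8 libraries. A single gene decided this order in several libraries: without HOXD13 the ESO-26 signal was 57.5% HOXB and 17.2% HOXD, without HOXA13 OE19 was 44.97% HOXB and 25.6% HOXA, and without HOXA5 FLO-1 was 44.97% HOXB and 31.8% HOXA. Without HOXB7, HOXA led in ESO-51 (50.3%) and JH_EsoAd1 (48.6%). Without HOXB9, HOXC led in OE33 (42.5%). HOXC took 36.2% in OE33, and 2.74% in JH_EsoAd1 and 5.72% in ESO-51. The bars of cluster shares show this order.

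**Figure D2:**
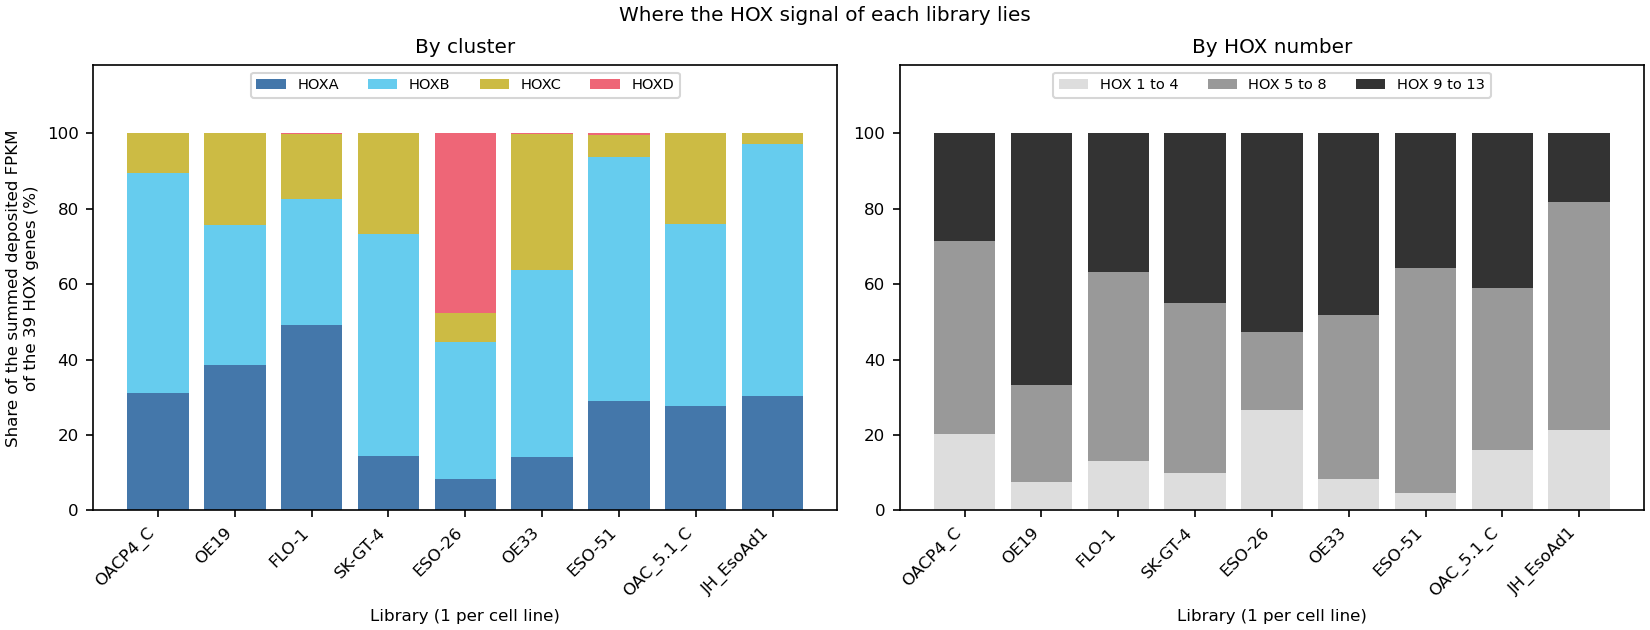
Share (%) of the summed deposited HOX FPKM in each of the 9 libraries, by cluster (left) and by HOX number (right). HOXB is the largest part in 6 libraries, HOX 9 to 13 hold 66.6% in OE19, and HOXD is visible in ESO-26 alone, at 47.7%.

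The FPKM-weighted mean HOX number, a measure of anterior against posterior use, was 9.43 in OE19 (95% interval 9.35 to 9.51, counting error only), 8.83 in ESO-26 (8.57 to 9.08), 8.48 in SK-GT-4, 8.18 in ESO-51, 7.93 in OE33, 7.47 in FLO-1, 7.43 in OAC_5.1_C, 6.86 in OACP4_C and 6.30 in JH_EsoAd1 (6.20 to 6.41). By this value OE19 was the most posterior and JH_EsoAd1 the most anterior. Without HOXA13, its highest gene, OE19 was at 8.69, under SK-GT-4 (9.12) and ESO-51 (9.05) each without its own highest gene, HOXB7, and JH_EsoAd1 was still lowest, at 5.88. The intervals of FLO-1 and OAC_5.1_C overlap, as do those of ESO-26 and SK-GT-4. With CPM as weights the ESO-26 value was 7.53 and without HOXD13 it was 6.39. Genes 9 to 13 held 66.6% of the HOX FPKM in OE19 and 18.1% in JH_EsoAd1. HOXB7 was the highest HOX gene per length in SK-GT-4 (30.1% of the HOX FPKM), ESO-51 (42.5%), OAC_5.1_C (18.1%) and JH_EsoAd1 (37.9%). Elsewhere it was HOXB8 in OACP4_C (15.8%), HOXA13 in OE19 (17.3%), HOXA5 in FLO-1 (25.2%), HOXD13 in ESO-26 (36.9%) and HOXB9 in OE33 (14.7%). The plots of levels along the clusters show where these libraries leave the range of the others. The shares depend on the deposited gene lengths, which for HOXB3 is 17785 bases and lowers its FPKM.

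**Figure D3:**
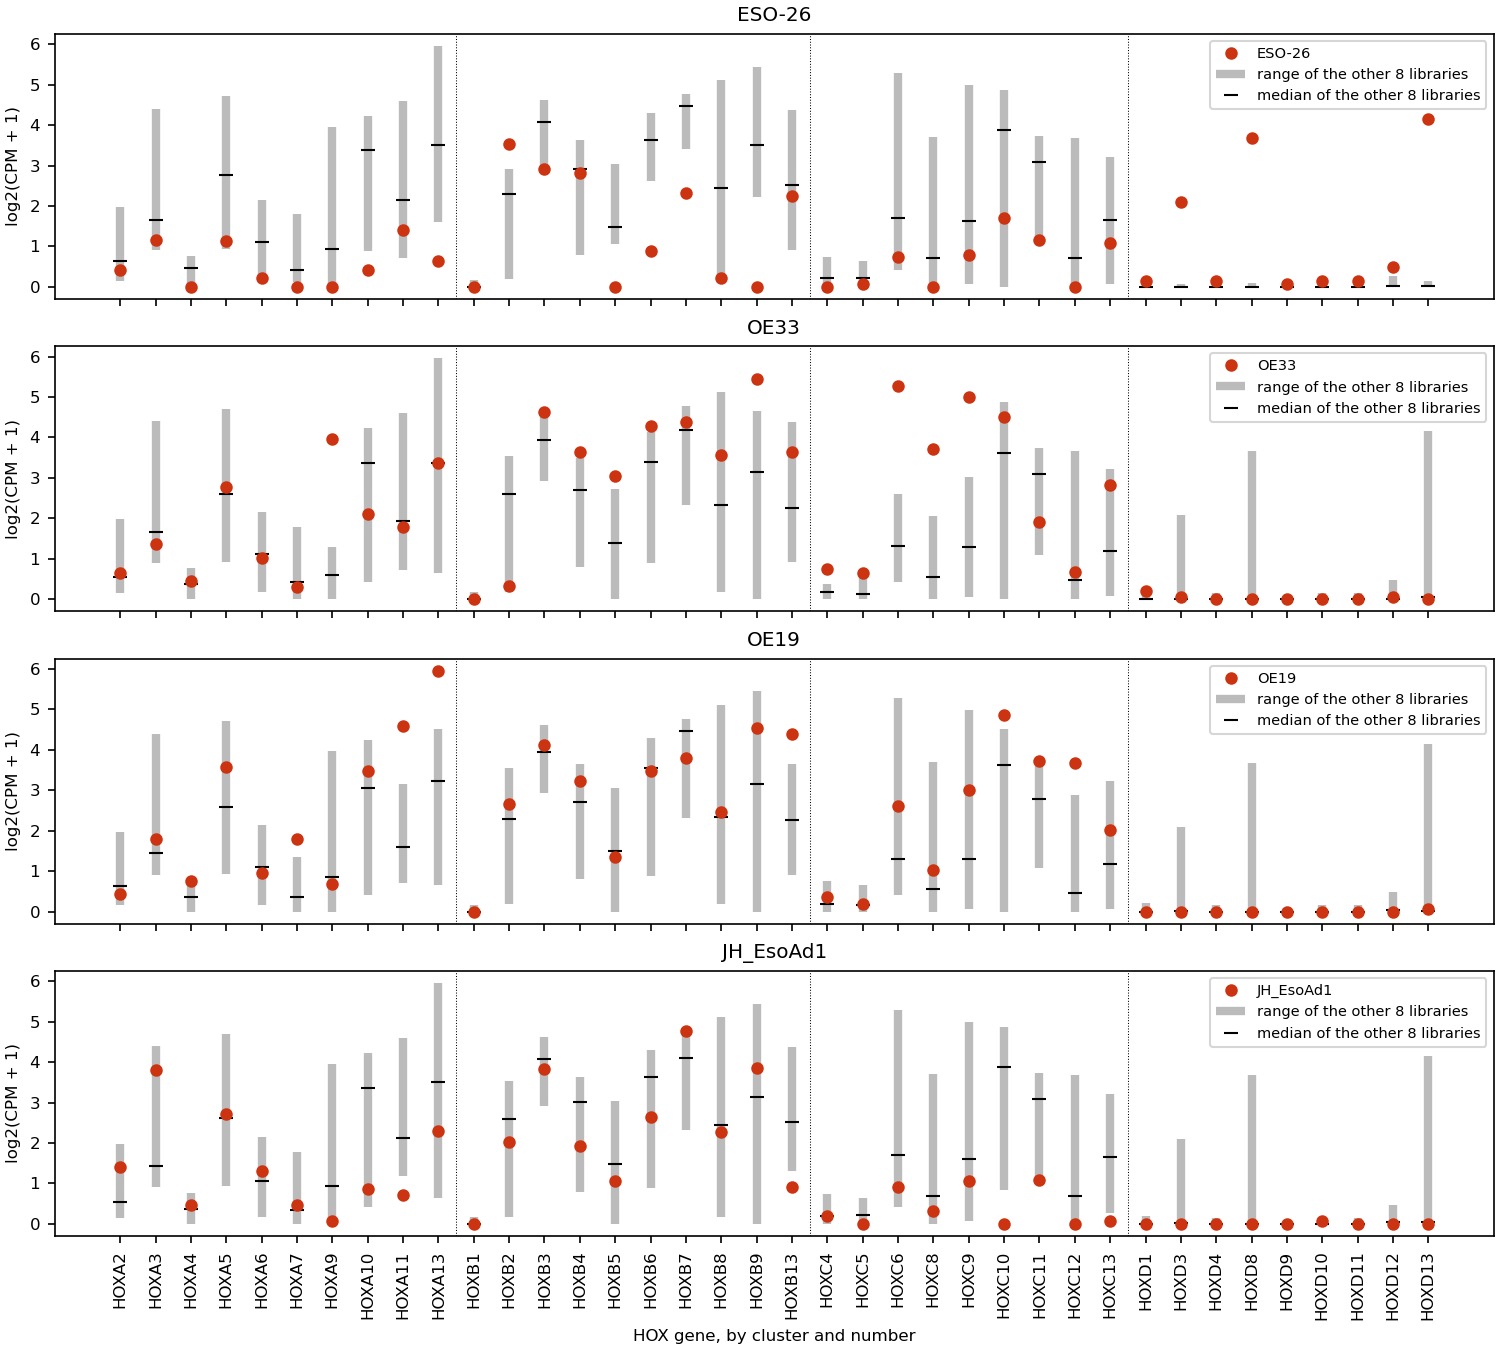
Level as log2(CPM + 1) of HOX genes, by cluster and number, in ESO-26, OE33, OE19 and JH_EsoAd1 (points, 1 panel each), with the range (grey bars) and median (dashes) of the other 8 libraries. ESO-26 lies above the bars at HOXD3, HOXD8 and HOXD13, OE33 at HOXA9, HOXB9, HOXC6, HOXC8 and HOXC9, OE19 at HOXA11, HOXA13 and HOXC12, among others, and JH_EsoAd1 lies at the low end at HOXC10 and HOXC11.

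Genes next to each other in number within a cluster had higher correlations than other pairs. Over the 9 libraries and the 26 HOX genes that reached 1 CPM in at least 2, the median correlation of 22 neighbouring pairs was 0.61 (range -0.20 to 0.94), against 0.34 for 80 pairs further apart in the same cluster and 0.32 for 207 pairs of other kinds. The same number in another cluster gave 0.53 over 16 pairs. The highest was HOXC6 with HOXC9, at 0.97, and the lowest HOXB2 with HOXB7, at -0.68. Pairs share libraries and, within a cluster, members, so these are descriptions with no test. Over 36 pairs of libraries the correlation across the 39 HOX genes had a median of 0.69, against 0.84 over all genes tested. The 39 include the 10 that reached 1 CPM in no library, whereas the genes tested hold no such genes. OACP4_C and OAC_5.1_C were the closest pair on both, at 0.89 and 0.91, whereas ESO-26 and OE33, at 0.07 over HOX genes, stood at 0.85 over all genes.

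**Figure D4:**
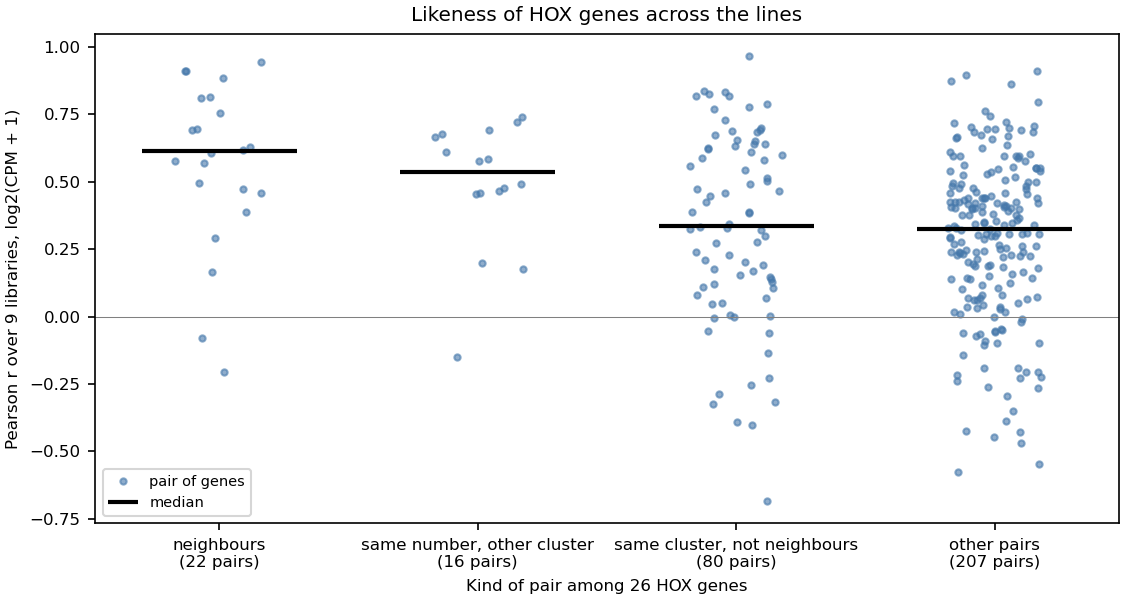
Pearson correlation over 9 libraries of log2(CPM + 1) for pairs of HOX genes, by kind of pair, with medians marked. Neighbours have a median of 0.61, above 0.34 and 0.32 for the pairs further apart and of other kinds.

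Some noncoding genes of the clusters were set beside a HOX gene that they overlap, over the same 9 libraries, in pairs chosen after values were seen; the other listed noncoding genes were not paired. HOXB-AS3 correlated with HOXB6 at 0.95 (rho 0.90), HOXC-AS2 with HOXC9 at 0.89 (rho 0.87), HOTTIP with HOXA13 at 0.86 (rho 0.85), HOXA11-AS with HOXA11 at 0.84 (rho 0.85), HOXC-AS3 with HOXC10 at 0.79 (rho 0.73) and HOTAIR with HOXC11 at 0.66 (rho 0.63). HOXC-AS1 gave 0.83 (rho 0.52) with HOXC9 and HOXC13-AS 0.76 (rho 0.74) with HOXC13. These pairs overlap on opposite strands, and the counting is not stated to use strand, so reads of the partners cannot be told apart. HOTTIP and HOXA11-AS, at the 5′ end of HOXA, were highest in OE19, at 7.60 and 9.62 CPM (HOXA11-AS being 7.10 CPM in FLO-1), where HOXA13 and HOXA11 were highest too. HOTAIRM1, at the 3′ end of HOXA, was 10.7 CPM in OACP4_C and 12.7 CPM in FLO-1, and had 0 counts in OE19. HOXB-AS3 was 0.338 CPM in ESO-26, and no other of the 24 listed noncoding genes in the table passed 4-fold from the median of the other 8 in any library.

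Some partners and known controllers of HOX genes passed 4-fold in single libraries, on lists that were drawn up with earlier results known. Of all genes tested, 23.0% were higher by as much in at least 1 library and 13.9% lower. Among the TALE homeodomain cofactors, which bind DNA together with HOX proteins, MEIS1 reached 17.4 CPM in FLO-1 (2.09 log2 units above the median of the other 8) and MEIS3 15.3 CPM in OE33 (2.92). OE33, with its high HOXC6, HOXC8 and HOXC9, was thus high in MEIS3 too.

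Of 8 ParaHox and cluster-flanking homeobox genes, CDX2, which drives intestinal identity, was 79.6 CPM in OE19 (3.67), 99.8 CPM in ESO-51 (4.0) and 0.441 CPM in JH_EsoAd1 (-2.49). CDX1 was 84.7 CPM in ESO-51. Beside these CDX2 levels, HOXA13 was 61.3 CPM in OE19, 11.7 CPM in ESO-51 and 3.92 CPM in JH_EsoAd1. In the libraries where CDX2 did not pass 4-fold, HOXA13 ran from 0.563 CPM in ESO-26 to 21.8 CPM in FLO-1. A link between CDX2 and HOXA13 was not tested. GSX2, a ParaHox gene of the forebrain, was 89.5 CPM in ESO-26, and EVX1, which lies next to HOXA13, was 9.33 CPM in SK-GT-4. No other gene of that list passed 4-fold in any library.

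Among 22 chromatin and retinoid regulators, 2 were higher and 3 lower in ESO-26, where 3.80% of all genes tested were higher and 6.42% lower, the largest lower share of the 9 libraries. There RARB, a retinoic acid receptor, was 33.6 CPM (4.13) and the Polycomb subunit CBX7 61.0 CPM (2.02). The Polycomb subunit CBX8 was 1.30 CPM (-2.61), the methyltransferase KMT2D 19.7 CPM (-2.13) and the receptor RARA 5.69 CPM (-2.12). CBX2, another Polycomb subunit, was 38.1 CPM in FLO-1 (2.34), 0.367 CPM in OACP4_C (-3.22) and 0.435 CPM in OAC_5.1_C (-3.15). KMT2D was 427 CPM in SK-GT-4 (2.48), and CYP26A1, which breaks down retinoic acid, was 8.94 CPM in OE33 (3.16). The median difference of these 22 genes ran from -0.47 in OAC_5.1_C to 0.36 in SK-GT-4.

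The lines' files hold counts by a union rule and by an intersection-not-empty rule, which differ where genes overlap: the summed intersection counts were 7.5 times the union counts for HOXD4, 1.68 for HOXC4, 1.38 for HOXA4, 1.29 for HOXA9 and 1.19 for HOXC10. The call counts over all libraries were 19 and 15 under that alternative too.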

How the data were processed

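Counts are as deposited: the authors' table holds raw counts per gene name, 1 column per line, and per the file headers each line also has union and intersection-not-empty counts, gene length and FPKM (counts per kilobase and per 1e6 counts of its file, by the authors). The submitters' processing notes name STAR 2.6.1d, FastQC 0.11.7, R 3.6.1 and GRCh37. The counting program, annotation release, strand setting and how technical replicates were combined are not given in the sources used here. Rows with a blank name, 0.00485% to 0.00965% of counts, were left out.

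CPM were computed with TMM factors (0.840 to 1.11; edgeR 4.0.16, R 4.3.3), with a pseudocount of 1, and genes at 1 CPM in at least 1 library entered the comparisons (19707, called the genes tested). With 1 library per line no model was fitted. Calls are at least 2 log2 units from the median of the other 8. Intervals of shares and mean HOX numbers carry the Poisson error of the counts to first order. Apart from the alternatives, FPKM was used only within a library, since its denominator includes counts outside the table (25.8% to 77.3%). The rest used Python 3.11.15 with pandas 2.3.3, scipy 1.17.1, matplotlib 3.10.9 and numpy 2.4.6, and the calling of differences was tested on simulated data. Values in every library are given (as counts for HOXD) for the 5 genes of each cluster with the highest maximum CPM and for genes at least 2 log2 units above all other libraries at 5 CPM or more; of related lists, those past 4-fold are named. The HOX genes and lists were chosen with earlier results of these data known. Noncoding pairs were chosen after seeing values. Size factors (DESeq2 1.42.0), pseudocounts, filters, thresholds, FPKM, and left-out libraries were the alternatives. Values of 1 HOX gene and 1 cofactor are not reported here, though they enter the counts and sums.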

Additional observations from a re-analysis of the deposited data

How the results depend on the processing

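No paired analysis was possible because each line has 1 library and the labels carry no replicate numbers. With DESeq2 size factors, library size alone, no filter, a filter of 5 CPM in at least 1 library and intersection-not-empty counts (chosen after seeing the data), the totals of 19 higher and 15 lower calls were 18 to 19 and 14 to 16; without OE19 and SK-GT-4 (also chosen after seeing the data) they were 14 and 13. With each library left out in turn they were 14 to 18 and 10 to 17. With a pseudocount of 5 they were 6 and 0, on deposited FPKM 5 and 0, and with a difference of 1 log2 unit 43 and 40. With a pseudocount of 0.5, 23 were lower, and without ESO-26 and OE33, 11 were higher. Single calls were rerun only with DESeq2 size factors, library size alone, a pseudocount of 5, deposited FPKM and each other library left out. Of the 34 calls, 5 passed in all of these, all of them higher calls. Lower calls had little room to pass with a pseudocount of 5 or on FPKM. Similarity medians were rerun with a pseudocount of 5, library size alone, Spearman correlation, without ESO-26 and OE33, and with each library left out. They ran from 0.57 to 0.675 for neighbours and from 0.46 to 0.59 for the same number in another cluster. For pairs further apart in a cluster they ran from 0.25 without ESO-26 to 0.49 without OE33. Pairs of other kinds gave 0.21 without ESO-26 to 0.38 without OE33. Depth limits the silent genes, since 3 counts equal 0.0395 to 0.169 CPM; the cause of the other changes was not tested.

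By library, HOX genes at 1 FPKM or more numbered 14 in OACP4_C, 12 in OE19, 9 in FLO-1, 8 in SK-GT-4, 5 in ESO-26, 4 in ESO-51, 7 in OAC_5.1_C, 1 in JH_EsoAd1, and at 2 CPM or more 9 in ESO-26, 9 in ESO-51. FPKM is not on 1 scale across libraries, since counts outside the table were 77.3% of the file in JH_EsoAd1 and 25.8% in OE19. HOXB7 was 26.2 CPM and 2.11 FPKM in JH_EsoAd1, against 22.3 CPM and 6.55 FPKM in OACP4_C. The part of this denominator in the FPKM counts and calls was not tested. Higher calls with a pseudocount of 5 were 1 in OACP4_C, 2 in OE19, 0 in FLO-1, 0 in SK-GT-4, 1 in ESO-26, 2 in OE33, 0 in JH_EsoAd1. On FPKM they were 1 in OACP4_C, 1 in OE19, 0 in FLO-1, 0 in SK-GT-4, 1 in ESO-26, 2 in OE33, 0 in JH_EsoAd1. With a difference of 1 they were 10 in OACP4_C, 9 in OE19, 6 in FLO-1, 2 in SK-GT-4, 9 in OE33, 1 in OAC_5.1_C, 2 in JH_EsoAd1. Lower calls with a pseudocount of 0.5 were 1 in OE19, 2 in SK-GT-4, 1 in OAC_5.1_C, and with one of 5, and on FPKM alike, 0 in ESO-26, 0 in OE33, 0 in ESO-51, 0 in JH_EsoAd1. With a difference of 1 they were 1 in OE19, 1 in FLO-1, 2 in SK-GT-4, 12 in ESO-26, 3 in OE33, 11 in ESO-51, 2 in OAC_5.1_C, 8 in JH_EsoAd1. With library size alone there was 1 in OAC_5.1_C, and without ESO-26 and OE33 1 in OE19, 1 in SK-GT-4, 1 in OAC_5.1_C. With each library left out in turn, FLO-1 had 0 to 2 higher calls, and OE19 and OAC_5.1_C 0 to 1 lower calls.

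The mean HOX number with CPM weights was 6.73 in OACP4_C, 9.52 in OE19, 7.70 in FLO-1, 8.06 in SK-GT-4, 7.53 in ESO-26, 7.68 in OE33, 8.42 in ESO-51, 7.26 in OAC_5.1_C, 5.83 in JH_EsoAd1, and without the highest gene 6.64 in OACP4_C, 8.69 in OE19, 8.30 in FLO-1, 9.12 in SK-GT-4, 6.39 in ESO-26, 7.74 in OE33, 9.05 in ESO-51, 7.52 in OAC_5.1_C, 5.88 in JH_EsoAd1. Cluster shares moved by more than their interval as follows with CPM in place of FPKM. In OACP4_C these were HOXA 33.3%, HOXB 54.9% and HOXC 11.7%. In OE19 these were HOXA 39.95% and HOXB 35.7%. In FLO-1 these were HOXA 43.7% and HOXB 38.5%. In SK-GT-4 these were HOXA 17.7% and HOXB 56.7%. In ESO-26 these were HOXB 41.6% and HOXD 42.4%. In OE33 these were HOXB 48.2% and HOXC 37.4%. In ESO-51 these were HOXA 35.2%, HOXB 56.6% and HOXC 7.77%. In OAC_5.1_C these were HOXC 25.6%. In JH_EsoAd1 these were HOXB 64.8%. Without the highest gene they moved as follows. In OACP4_C these were HOXA 37.1%, HOXB 50.5% and HOXC 12.4%. In OE19 these were HOXA 25.6%, HOXB 44.97% and HOXC 29.4%. In FLO-1 these were HOXA 31.8%, HOXB 44.97% and HOXC 23.04%. In SK-GT-4 these were HOXA 20.7%, HOXB 40.9% and HOXC 38.3%. In ESO-26 these were HOXA 13.4%, HOXB 57.5%, HOXC 11.9% and HOXD 17.2%. In OE33 these were HOXA 16.5%, HOXB 40.8% and HOXC 42.5%. In ESO-51 these were HOXA 50.3%, HOXB 38.8%, HOXC 9.96% and HOXD 0.960%. In OAC_5.1_C these were HOXA 33.8%, HOXB 36.6% and HOXC 29.48%. In JH_EsoAd1 these were HOXA 48.6%, HOXB 46.9% and HOXC 4.42%.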
